A study of Mus musculus with 53 samples.

Results

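A set of 9 acute phase and serum amyloid genes, of the 49568 genes listed for each sample, was followed across sciatic nerve from 53 mice. The genes are Saa1, Saa2, Saa3, Lcn2, Hp, Orm1, Serpina3n, Il1rn and Wfdc21, and they were chosen by symbol from the response seen at 24 weeks in these samples, so the 24-week diet and diet reversal differences are described and carry no test. All mice were male C57BL/6J. Controls received a standard diet (SD) and were sampled at 16 weeks (n = 5) or 24 weeks (n = 8). High-fat diet mice (HFD, 60% of energy from fat from 5 weeks of age) were sampled at 16 weeks (n = 7) or 24 weeks (n = 7). HFD-STZ mice also received streptozotocin, a toxin of pancreatic beta cells, at 12 weeks of age as injections of 75 and 50 mg/kg, and were sampled at 16 weeks (n = 5) or 24 weeks (n = 8). In diet reversal (DR), HFD and HFD-STZ mice returned to the control diet at 16 weeks for 8 weeks, giving HFD-DR (n = 7) and HFD-STZ-DR (n = 6) at 24 weeks. The nerve is a bulk tissue, so fewer cells of a type and less RNA per cell cannot be told apart.

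Acute phase proteins are secreted during inflammation, classically by the liver under interleukin 6 and interleukin 1, and many are also made locally by fat, macrophages and epithelia. Serum amyloid A proteins are small apolipoproteins: in mice Saa1 and Saa2 are the circulating liver forms, while Saa3 is made mainly outside the liver, in adipose tissue and activated macrophages. The other genes encode an iron-scavenging lipocalin of neutrophils (Lcn2), the haemoglobin-binding protein haptoglobin (Hp), the plasma lipid and drug carrier orosomucoid (Orm1), a serine protease inhibitor (Serpina3n), the decoy ligand of the interleukin 1 receptor (Il1rn) and a small secreted protein of the WAP family (Wfdc21).

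Saa3, Saa1 and Saa2 lie together within 42.3 kb of chromosome 7 (GRCm38, GENCODE M21), at chr7:46711998-46715700, chr7:46740497-46742980 and chr7:46751790-46754313. The other genes lie apart: Lcn2 at chr2:32384633-32388252, Il1rn at chr2:24336853-24351494, Orm1 at chr4:63344560-63348163, Hp at chr8:109575128-109579172, Wfdc21 at chr11:83746940-83752642 and Serpina3n at chr12:104406729-104414329. The promoters of the 3 amyloid genes are shown because these neighbours differed in the nerve. The 250 bases before each RefSeq start site (GRCm38.p6) are given 5′ to 3′ on the gene's own strand, with matches to the C/EBP motif TTGCNNAA, read on both strands, in capitals. C/EBP factors are classical regulators of acute phase genes.
Saa3, chr7:46715677-46715926, minus strand: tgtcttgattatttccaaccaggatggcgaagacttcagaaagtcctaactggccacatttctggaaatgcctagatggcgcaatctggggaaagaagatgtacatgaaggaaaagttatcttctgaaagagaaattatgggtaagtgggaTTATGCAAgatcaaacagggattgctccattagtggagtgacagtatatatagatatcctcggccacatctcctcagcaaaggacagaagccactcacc
Saa1, chr7:46742981-46743230, minus strand: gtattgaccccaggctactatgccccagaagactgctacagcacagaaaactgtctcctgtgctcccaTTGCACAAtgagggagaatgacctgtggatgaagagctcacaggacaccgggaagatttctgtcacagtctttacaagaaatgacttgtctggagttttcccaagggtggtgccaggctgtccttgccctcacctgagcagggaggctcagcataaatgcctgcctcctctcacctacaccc
Saa2, chr7:46751583-46751832, plus strand: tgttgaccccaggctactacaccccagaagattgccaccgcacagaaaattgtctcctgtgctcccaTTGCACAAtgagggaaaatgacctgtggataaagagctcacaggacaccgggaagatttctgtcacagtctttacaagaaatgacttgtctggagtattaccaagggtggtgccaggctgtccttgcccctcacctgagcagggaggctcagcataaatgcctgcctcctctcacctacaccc

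The Saa1 and Saa2 stretches were identical at 94.8% of aligned columns, and the Saa3 stretch was identical to them at 52.2% and 52.4%. The C/EBP match lay at -182 to -175 from the start in Saa1, at -183 to -176 in Saa2 and, on the opposite strand, at -99 to -92 in Saa3. Lcn2 held another match, and Serpina3n and the 3 start sites of Il1rn held none. Among 32851 RefSeq promoters of the same length, 9.56% held the C/EBP motif. The STAT motif TTCNNNGAA (7.02% of promoters) and the NF-kappaB motif (7.25%) were searched likewise and matched no stretch of these 6 genes. A match is a description of letters and not a binding site. Hp, Orm1 and Wfdc21 had no promoter entry.

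The values are normalised log2 expression values, so a difference of 1 is a doubling on their own scale. The way they were normalised is not given. Differences and folds of low genes may therefore not equal ratios of RNA. The reads behind each gene are unknown. Across all samples the correlation between libraries ran from 0.916 to 0.994 and no pair was identical. HFD-STZ replicate 7 at 24 weeks (median correlation 0.941 with the others), HFD-STZ-DR replicate 4 and SD replicate 5 at 24 weeks stood furthest apart. Markers of skeletal muscle varied widely between samples (list mean 5.98 to 15.3), while the 10 Schwann cell markers were high in every sample (16.1 to 17.0).

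Saa3 was low in controls and high in most mice on HFD. At 16 weeks the 5 SD mice stood at 3.79, 3.13, 3.17, 3.65 and 3.44. The 7 HFD mice ran from 2.95 to 9.13, with a median of 6.98. HFD replicates 5 and 6, at 2.95 and 3.00, were below every control, and the other 5, from 6.94 upward, were above every control. The 5 HFD-STZ mice at that age read 4.07, 3.44, 2.95, 3.81 and 4.56, overlapping the controls.

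At 24 weeks Saa3 ran in SD from 2.76 through a median of 3.42 to 4.20. In HFD it ran from 5.82 through 7.24 to 8.70, so every HFD mouse was above every SD mouse. In HFD-STZ it ran from 3.66 through 6.55 to 7.55, and 7 of 8 mice were above all SD mice. After DR it ran from 2.83 through 3.64 to 5.11 in HFD-DR and from 2.51 through 2.81 to 3.25 in HFD-STZ-DR. Every HFD-DR mouse was below every HFD mouse, and every HFD-STZ-DR mouse was below every HFD-STZ mouse.

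By group mean the order for Saa3 was HFD at 24 weeks (7.12 ± 1.18, SD over mice), HFD at 16 weeks (6.45 ± 2.51), HFD-STZ at 24 weeks (6.08 ± 1.42), HFD-DR (3.87 ± 0.89), HFD-STZ at 16 weeks (3.77 ± 0.61), SD at 16 weeks (3.43 ± 0.29), SD at 24 weeks (3.39 ± 0.48) and HFD-STZ-DR (2.85 ± 0.30). The step from HFD-STZ at 24 weeks to HFD-DR, and that from SD at 24 weeks to HFD-STZ-DR, exceeded the larger SD of the neighbours. The other 5 neighbouring pairs differed by less than their spread.

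**Figure D1:**
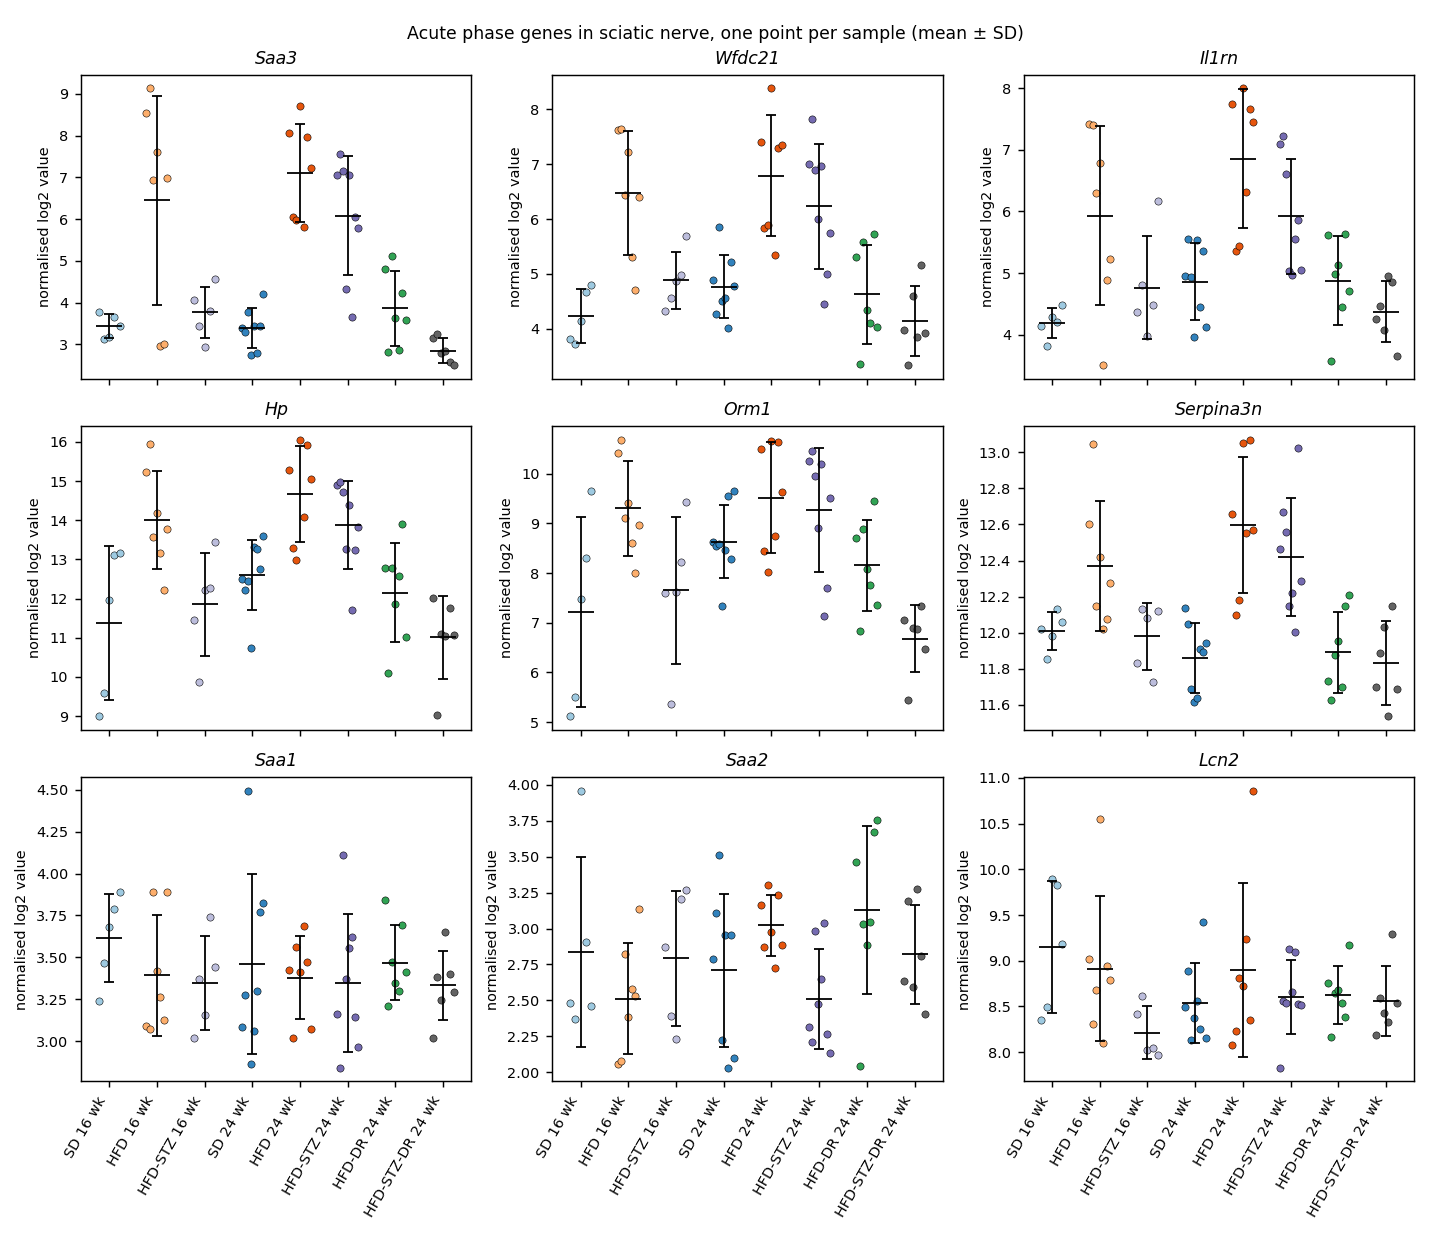
Normalised log2 value of each gene (vertical axis, scaled per gene) in every sample, by group; points are samples and black bars the mean ± SD. Saa3 of the 7 HFD mice at 24 weeks sits between 5.82 and 8.70, above all 8 SD mice, while Saa1 and Saa2 stay between 2.03 and 4.49 in all groups.

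Saa1 and Saa2 did not share this pattern. Saa1 ran from 2.84 to 4.49 over the 53 mice, with group means between 3.33 and 3.61. Saa2 ran from 2.03 to 3.96, with group means between 2.51 and 3.13. Both sat near the low end of the scale, and Saa2 reached 10 on the linear scale, the level used as a filter on group means, in 5 of 53 samples. No 100-base stretch of their main transcripts, or of Saa3, occurred in any other annotated gene, although Saa1 and Saa2 transcripts were 87.3% identical, so reads of 1 gene could be told from those of the others over that length.

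Wfdc21 and Il1rn, the secreted WAP protein and the interleukin 1 receptor antagonist, were low in controls and higher in most mice on HFD. Wfdc21 in the 5 SD mice at 16 weeks read 3.81, 3.73, 4.15, 4.68 and 4.80, and in HFD mice of that age it ran from 4.71 through 6.45 to 7.64. At 24 weeks it ran from 4.02 through 4.68 to 5.86 in SD, from 5.35 through 7.30 to 8.38 in HFD and from 4.46 through 6.45 to 7.81 in HFD-STZ. In 5 of 7 HFD mice and 5 of 8 HFD-STZ mice Wfdc21 was above all SD mice. It ran from 3.35 to 5.72 in HFD-DR and from 3.34 to 5.16 in HFD-STZ-DR, ranges that overlap the SD mice.

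Il1rn in the SD mice at 16 weeks read 4.14, 3.82, 4.29, 4.21 and 4.49, and in HFD mice it ran from 3.51 through 6.29 to 7.41. At 24 weeks it ran from 3.96 through 4.95 to 5.55 in SD, from 5.35 through 7.45 to 8.00 in HFD and from 4.97 through 5.71 to 7.22 in HFD-STZ. The 3 groups with the highest means were those of Saa3, with HFD at 16 weeks (5.93 ± 1.45) and HFD-STZ at 24 weeks (5.92 ± 0.93) not told apart. Every HFD-STZ-DR mouse, at 3.65 to 4.94, was below every HFD-STZ mouse of that age, and 5 of 7 HFD-DR mice were below every HFD mouse. The first margin was narrow: HFD-STZ-DR replicate 4, a library that stood apart, read 4.94 and HFD-STZ replicate 5 read 4.97.

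Hp and Orm1, which encode plasma carriers, were the most variable in control mice. Hp in the 5 SD mice at 16 weeks read 8.99, 9.59, 11.96, 13.12 and 13.17, and Orm1 in the same mice, in the same order, read 5.12, 5.51, 7.48, 8.31 and 9.66. The first 2 of these mice were the lowest for both genes, while their Saa3, at 3.79 and 3.13, was not set apart. At 24 weeks Hp ran from 10.75 to 13.59 in SD and from 12.99 to 16.06 in HFD, and Orm1 from 7.33 to 9.65 in SD and from 8.01 to 10.66 in HFD. Both were lowest by mean in HFD-STZ-DR, at 11.01 ± 1.05 for Hp and 6.68 ± 0.67 for Orm1 (SD, n = 6).

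Serpina3n, the protease inhibitor, moved within a narrow band. It ran from 11.62 to 12.14 in SD and from 12.10 to 13.07 in HFD at 24 weeks, with 6 of 7 HFD mice above all SD mice. In HFD-STZ it ran from 12.00 to 13.02, with 7 of 8 mice above all SD mice. After DR it ran from 11.63 to 12.21 in HFD-DR and from 11.54 to 12.15 in HFD-STZ-DR, over the range of the controls.

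Lcn2, the neutrophil lipocalin, ran from 7.83 to 10.86 with no order that followed diet. Its group means were between 8.21 ± 0.29 in HFD-STZ at 16 weeks and 9.15 ± 0.72 in SD at 16 weeks (SD, n = 5 each). The 2 highest mice were HFD replicate 7 at 24 weeks (10.86) and HFD replicate 4 at 16 weeks (10.55).

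At 24 weeks, the age whose differences chose the genes, HFD against SD gave a difference of 3.73 ± 0.41 (log2, SE, 7 against 8) for Saa3, a fold of 13.3 on the scale of these values. The SD mean behind this fold, 3.39, lay near the low end of the scale, beside Saa1 in the same mice (3.46). Differences (log2, SE) were 2.06 ± 0.49 for Hp, 2.02 ± 0.41 for Wfdc21, 1.99 ± 0.42 for Il1rn, 0.89 ± 0.43 for Orm1 and 0.74 ± 0.14 for Serpina3n, against 0.36 ± 0.34 for Lcn2 and -0.08 ± 0.22 for Saa1. The low-value filter left 8 of the 9 genes, since Saa2 was under it in every comparison. Counts past a threshold in the 4 comparisons that chose the genes are given as a description beside the share over all genes, and nothing is read from them. Of these 8, Saa3 had an adjusted p under 0.05 in limma, beside 0.121% of the 18195 genes tested, and Saa3 alone did not overlap between groups, beside 0.181% of genes that were higher without overlap. Without HFD replicate 2 or without HFD replicate 3, 4 of the 8 were past it, as were 44 of all genes in place of 22. Without HFD replicate 5 or SD replicate 3 it was 2 of the 8, beside 24 and 29 of all genes. With the adipocyte markers described below as a covariate it was 5 of the 8, beside 143 of all genes.

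HFD-STZ against SD at 24 weeks gave 2.69 ± 0.49 for Saa3 (log2, SE, 8 against 8), 1.47 ± 0.42 for Wfdc21, 1.27 ± 0.46 for Hp, 1.06 ± 0.37 for Il1rn, 0.63 ± 0.47 for Orm1 and 0.56 ± 0.13 for Serpina3n. None of the 8 genes had an adjusted p under 0.05 (0.0336% of genes did) and none was free of overlap (0.0392%). Leaving out HFD-STZ replicate 4 or replicate 6, whose Saa3 read 4.34 and 3.66, brought 1 of the 8 past the threshold, beside 7 and 19 of all genes in place of 6.

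After DR the same 6 genes were lower by group mean in both models. HFD-DR against HFD gave -3.25 ± 0.50 for Saa3 (log2, SE, 7 against 7), -2.53 ± 0.59 for Hp, -2.15 ± 0.48 for Wfdc21, -1.98 ± 0.46 for Il1rn, -1.37 ± 0.49 for Orm1 and -0.71 ± 0.15 for Serpina3n. None of 8 had an adjusted p under 0.05 (0.0108% of genes did), and Saa3 alone was lower without overlap (0.119%). HFD-STZ-DR against HFD-STZ gave -3.23 ± 0.55 for Saa3 (6 against 8), -2.87 ± 0.53 for Hp, -2.58 ± 0.51 for Orm1, -2.09 ± 0.48 for Wfdc21, -1.55 ± 0.39 for Il1rn and -0.59 ± 0.15 for Serpina3n. Saa3 had an adjusted p under 0.05 (0.0839% of genes did), and Saa3 and Il1rn were lower without overlap (0.185%). Saa3 passed the filter here through the HFD-STZ mice, its mean in HFD-STZ-DR being 2.85. The count moved with single samples, and with it the count over all genes, which was 15. It was 5 of the 8 without HFD-STZ replicate 6 (167 of all genes), 4 without replicate 7 (117), 1 without replicate 4 (8) and 0 without each of the other samples in turn. Without the 3 libraries that stood furthest apart it was 3 of the 8, beside 145 of all genes. In HFD-DR against HFD it was 1 without HFD replicate 2, 3 or 5 or HFD-DR replicate 3, beside 3 to 10 of all genes in place of 2. The 2 disease and 2 reversal comparisons share HFD, HFD-STZ and SD samples, so their values are not independent.

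**Figure D2:**
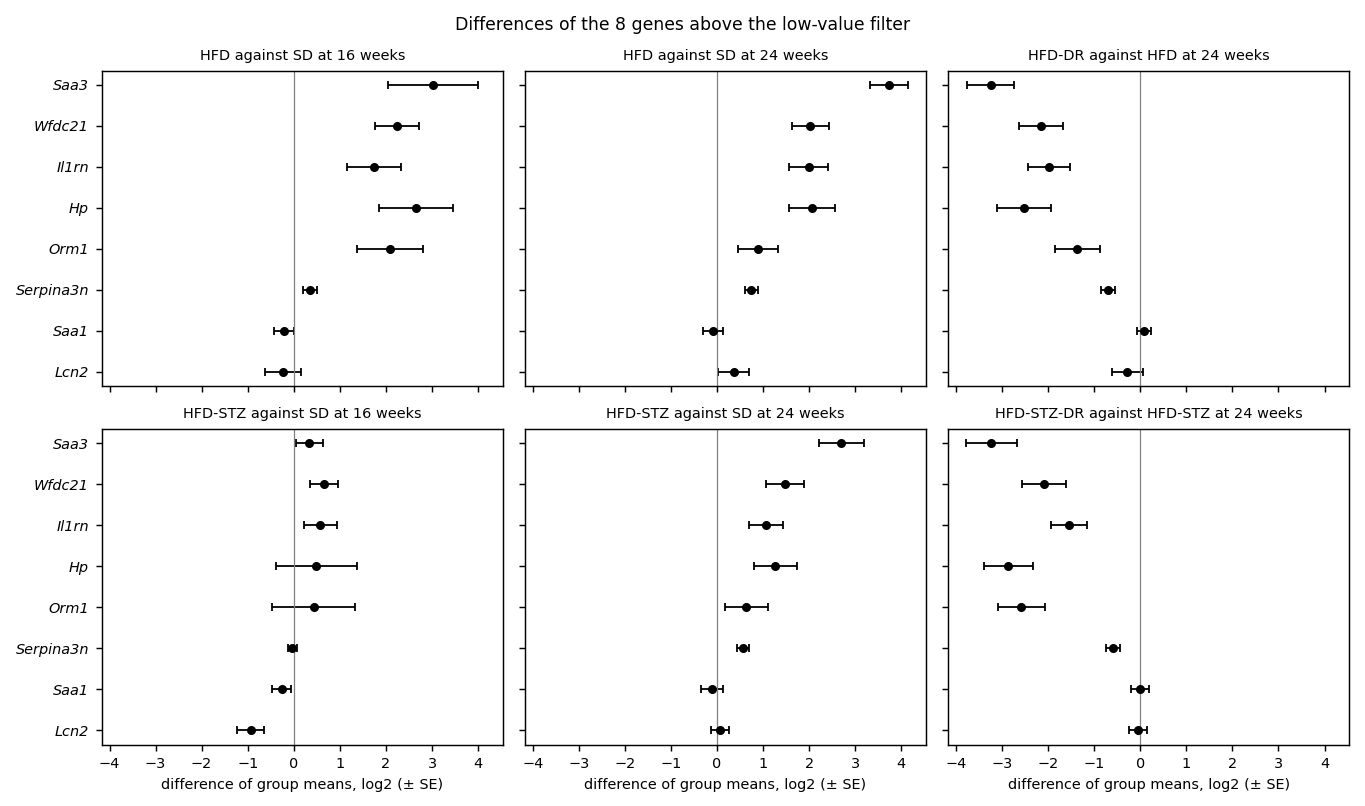
Difference of group means (horizontal axis, log2) with SE from limma for the 8 genes above the low-value filter, in 6 comparisons. Saa3, Wfdc21, Il1rn, Hp, Orm1 and Serpina3n lie to the right of 0 for HFD against SD and to the left of 0 after DR, and Saa1 and Lcn2 stay within 0.4 of 0 at 24 weeks.

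The other 9 comparisons of groups were not those whose differences chose the genes and were tested, although the choice was made with all results known. Those that hold 24-week mice share them with the comparisons that set the choice. The paper's joint analysis of lipids and genes, which included 16-week mice, also ranked Saa3, Hp, Orm1, Il1rn and Wfdc21 among its top genes. The p-values at 16 weeks are therefore not free of the choice. At 16 weeks HFD against SD gave 3.02 ± 0.99 for Saa3 (log2, SE, 7 against 5, exact permutation p = 0.0492), 2.65 ± 0.79 for Hp (exact permutation p = 0.0114), 2.24 ± 0.48 for Wfdc21 (exact permutation p = 0.00379), 2.09 ± 0.72 for Orm1 (exact permutation p = 0.0303), 1.74 ± 0.58 for Il1rn (exact permutation p = 0.0303) and 0.36 ± 0.15 for Serpina3n (exact permutation p = 0.0442), all 2-sided and unadjusted. Above all SD mice were 5 of 7 HFD mice for Saa3, 6 for Hp, Wfdc21 and Il1rn, 5 for Serpina3n and 2 for Orm1. In limma, 6 of 8 genes had an unadjusted p under 0.05, beside 8.56% of 17966 genes, and 0 of 8 had an adjusted p under 0.05, beside 0.00557% of genes. The lowest adjusted p among the 8 was 0.245, for Wfdc21. With the adipocyte marker mean as a covariate, 1 of the 8, Wfdc21, had an unadjusted p under 0.05.

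HFD-STZ mice at 16 weeks overlapped the controls for every one of the 9 genes, as did HFD mice of that age. Above all SD mice were 3 of 5 HFD-STZ mice for Saa3 and for Wfdc21, 2 for Il1rn, 1 for Hp and for Serpina3n and 0 for Orm1. Against SD the differences (log2, SE, 5 against 5) were 0.33 ± 0.29 for Saa3, 0.65 ± 0.30 for Wfdc21 and 0.57 ± 0.35 for Il1rn, with exact permutation p from 0.0794 to 0.31. Of 8 genes 1, Lcn2, had an unadjusted p under 0.05 in limma (8.41% of genes did) and 0 an adjusted one (0% of genes), with a difference of -0.93 ± 0.30 and an exact permutation p of 0.0397. Against HFD mice of the same age, HFD-STZ differed by -2.69 ± 0.99 for Saa3 (exact permutation p = 0.0556), -2.17 ± 0.63 for Hp (p = 0.0164, exact), -1.66 ± 0.60 for Orm1 (p = 0.0341, exact), -1.59 ± 0.48 for Wfdc21 (p = 0.0227, exact), -1.17 ± 0.63 for Il1rn (p = 0.133, exact) and -0.39 ± 0.16 for Serpina3n (p = 0.048, exact). In limma 6 of 8 had an unadjusted p under 0.05 (4.88% of genes did) and 0 an adjusted one (0%).

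In HFD-STZ mice Saa3 was higher at 24 than at 16 weeks by group mean. The difference (log2, SE, 8 against 5) was 2.32 ± 0.61 for Saa3 (exact permutation p = 0.0124), 2.02 ± 0.61 for Hp (p = 0.0132, exact), 1.35 ± 0.50 for Wfdc21 (p = 0.0311, exact), 1.16 ± 0.47 for Il1rn (p = 0.0482, exact), 1.61 ± 0.68 for Orm1 (p = 0.0544, exact) and 0.44 ± 0.15 for Serpina3n (p = 0.0163, exact). In limma 6 of 8 had an unadjusted p under 0.05 (12.5% of genes did) and 0 an adjusted one (0%). The adipocyte marker mean was also higher at 24 weeks (12.00 against 10.74), and with it as a covariate the differences were 1.54 ± 0.60 for Saa3, 0.78 ± 0.27 for Hp, 0.50 ± 0.37 for Wfdc21, 0.81 ± 0.52 for Il1rn, 0.16 ± 0.19 for Orm1 and 0.47 ± 0.18 for Serpina3n. In SD, Saa3 differed between ages by -0.05 ± 0.24, with 2 of 8 genes at an unadjusted p under 0.05 (10.5% of genes) and 0 at an adjusted one (0%). In HFD, Saa3 differed by 0.66 ± 0.92, with 0 of 8 at an unadjusted p under 0.05 (5.89% of genes) and 0 at an adjusted one (0.0653%).

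At 24 weeks HFD-STZ and HFD differed by -1.04 ± 0.62 for Saa3 (log2, SE, exact permutation p = 0.154), and 0 of 8 genes had an unadjusted (5.6% of genes) or adjusted (0%) p under 0.05. With the adipocyte marker mean as a covariate, 5 of the 8 had an unadjusted p under 0.05 in limma, beside 1942 of 18121 genes. In that fit 0 of the 8, and 0 of all genes, had an adjusted one. HFD-DR against SD gave 0.48 ± 0.34 for Saa3 (exact permutation p = 0.207), and again 0 of 8 genes had an unadjusted (5.15%) or adjusted (0%) p under 0.05. HFD-STZ-DR mice were below SD for Orm1, by -1.95 ± 0.35 (exact permutation p = 0.000666), with 5 of 6 mice below every SD mouse, and for Hp, by -1.60 ± 0.47 (exact permutation p = 0.00766). Here 7 genes passed the filter, 2 of them with an unadjusted p under 0.05 (9.16% of genes) and 0 with an adjusted one (0%), or 1 without SD replicate 4, beside 20 of all genes. The adipocyte marker mean was lower in HFD-STZ-DR than in SD (10.13 against 11.51), and with it as a covariate the difference was -0.96 ± 0.21 for Orm1 and -0.19 ± 0.20 for Hp. Saa3, under the filter, differed by -0.53 (exact permutation p = 0.0323). The remaining 2 comparisons are built from differences that chose the genes and are descriptions. For the HFD effect at 24 against 16 weeks none of the 8 was past a threshold (0 of 8 genes at an unadjusted p under 0.05, beside 1.67% of genes, and 0 at an adjusted one, beside 0%), and likewise for the DR effect with against without STZ (0 of 8, beside 1.71%, and 0, beside 0%). For Saa3 these differences of differences were 0.71 ± 1.06 and 0.02 ± 0.77. Saa2, under the filter throughout, differed by 0.51 between 24 and 16 weeks in HFD (exact permutation p = 0.0117) and by -0.51 between HFD-STZ and HFD at 24 weeks (exact permutation p = 0.00761), at levels near the low end of the scale. In all 81 permutation tests were run over 9 genes and 9 comparisons, and 21 gave p under 0.05 before any adjustment. The genes were chosen with results of these data known, so the count is not set against a number expected by chance. The tests are also not independent. The comparisons share mice, at 16 weeks too, and several genes correlated within groups (Hp with Orm1 at 0.94, Saa3 with Wfdc21 at 0.79).

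Which genes followed Saa3 sample by sample was measured by correlation over the 53 samples, first as they are and then after subtracting each group's mean, so that only mouse-to-mouse variation within groups remains. These are descriptions without a test, and the samples share groups and tissue composition. Wfdc21 followed Saa3 most closely (r = 0.91, Spearman rho = 0.84; within groups r = 0.79, rho = 0.79), placing it at 7 and 8 among 18072 genes. Il1rn came next (r = 0.87, rho = 0.82; within groups r = 0.75, rho = 0.73; places 13 and 11). Hp (r = 0.80, within groups 0.60), Orm1 (0.73 and 0.59) and Serpina3n (0.82 and 0.58) followed, all within the first 111 genes in both orders. Saa1 (-0.02, within groups 0.10), Saa2 (-0.08 and 0.01) and Lcn2 (0.12 and -0.03) did not. The middle 95% of all genes ran from -0.35 to 0.45 within groups. The genes were chosen with results of these samples known, which can favour high places. Places and range are therefore no test of likeness. Leaving out the 2 samples farthest from the median of Saa3 gave within-group r of 0.78 for Wfdc21, 0.70 for Il1rn, 0.60 for Hp, 0.60 for Orm1 and 0.56 for Serpina3n.

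The same mice carried the low values. Of the 7 HFD mice at 16 weeks, replicates 5 and 6 were the lowest 2 for Saa3, Wfdc21, Il1rn, Hp, Orm1 and Serpina3n alike. For Saa1 they held places 4 and 3 from the lowest, for Saa2 places 5 and 4, and for Lcn2 places 1 and 5. In HFD-STZ at 24 weeks, replicate 6 was the lowest of 8 for Saa3, Wfdc21, Hp, Orm1 and Serpina3n and held place 4 for Il1rn, while for Saa2 it was the highest.

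**Figure D3:**
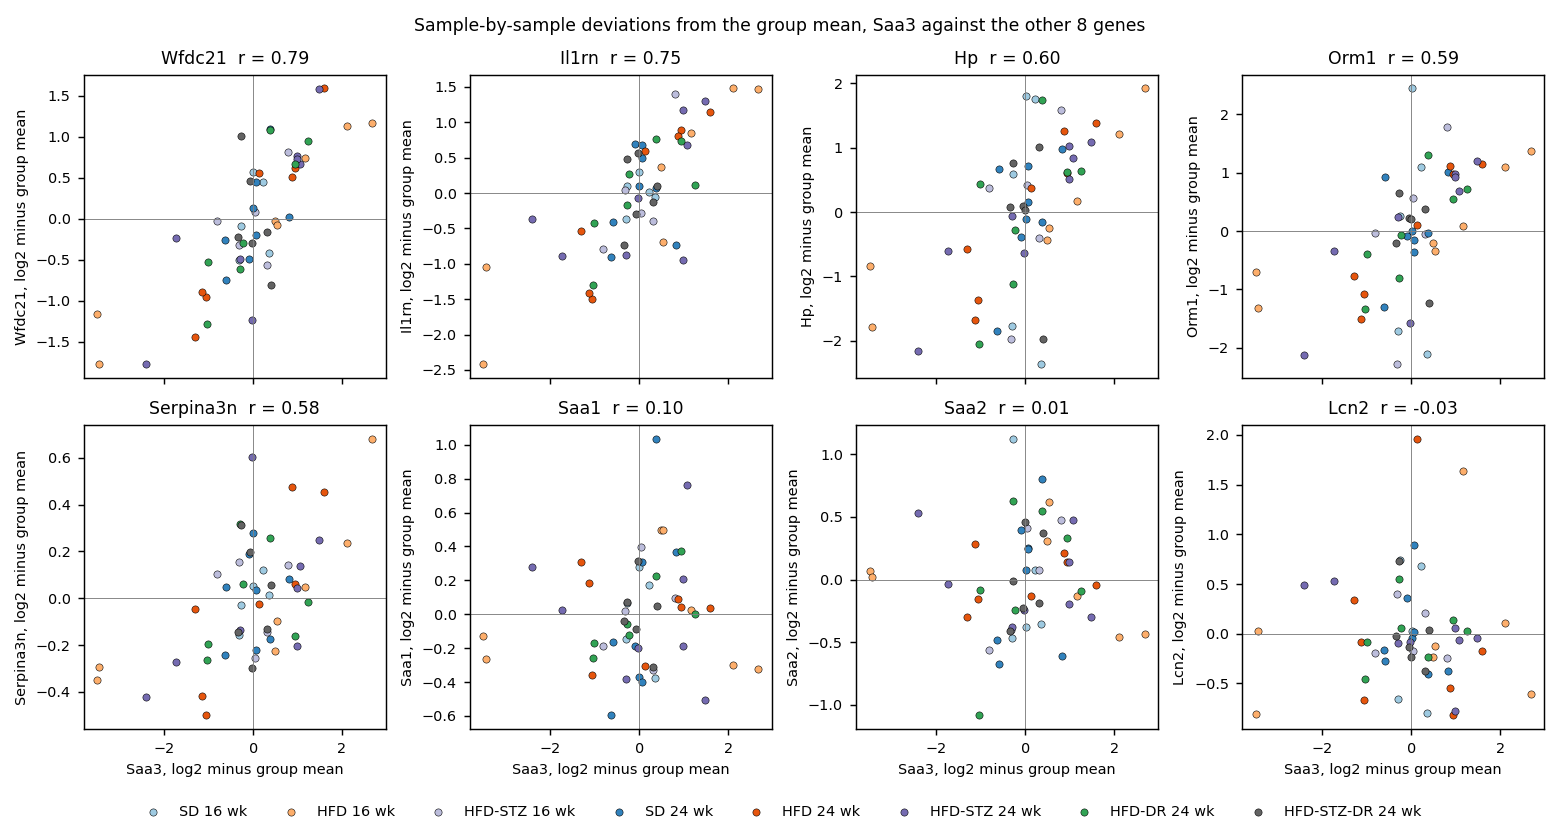
Each sample's deviation from its group mean (log2) for Saa3 on the horizontal axis and for 1 of the other 8 genes on the vertical axis; points are samples coloured by group and r is Pearson's r over 53 samples. Wfdc21 and Il1rn rise with Saa3 (r = 0.79 and 0.75), and Saa1, Saa2 and Lcn2 show no such slope.

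The genes outside the 9 that tracked Saa3 most closely were the same 5 in both orders: Tph2 (r = 0.96, within groups 0.90), which encodes the serotonin-synthesising enzyme of neurons, the long non-coding RNA 1700047G03Rik (0.94 and 0.88), Ubd (0.94 and 0.86), a ubiquitin-like modifier induced by inflammatory cytokines, Itgad (0.94 and 0.86), an integrin subunit of leukocytes, and Slc5a7 (0.92 and 0.84), the choline transporter. The paper lists all 5 among genes it had already found to differ in these samples, so their likeness to Saa3 is a description. These 5 genes lie on chromosomes 10, 15, 17, 7 and 17. Itgad, at chr7:128154376-128223816, shares the chromosome of Saa3 but not its cluster.

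Cell type markers moved with several of the genes. The 10 adipocyte markers were all above the filter, with Cfd the highest (mean 14.1) and Acvr1c the lowest (8.67), and fat lies in and around the outer sheath of the nerve. Within groups the adipocyte marker mean correlated with Hp at r = 0.95 and with Orm1 at r = 0.95 (rho = 0.95 and 0.94; without the 2 farthest samples 0.95 and 0.94). For Wfdc21 the value was 0.68, for Il1rn 0.48, for Saa3 0.47 and for Serpina3n 0.34, and for Lcn2 it was -0.06. Hp and Orm1 also correlated with each other at 0.94 within groups. Other marker lists went with these genes too, less closely. For Hp and Orm1 the within-group r was 0.74 and 0.75 with endothelial markers and 0.70 and 0.72 with fibroblast and epineurial markers. It was 0.66 and 0.65 with general macrophage markers and -0.60 and -0.56 with Schwann cell markers. The adipocyte marker mean ran from 8.05 to 11.73 in SD and from 10.65 to 13.00 in HFD at 16 weeks, from 9.85 to 12.38 in SD, 10.62 to 13.15 in HFD and 10.35 to 13.02 in HFD-STZ at 24 weeks, and from 9.47 to 12.40 in HFD-DR and 8.38 to 11.06 in HFD-STZ-DR.

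The adipocyte marker mean itself differed between groups, averaging 9.90 in SD and 11.76 in HFD at 16 weeks. Using it as a covariate can therefore also take out part of a diet difference. With the adipocyte marker mean as a covariate, the 24-week HFD difference was 3.43 ± 0.29 for Saa3 and 1.61 ± 0.16 for Hp (log2, SE), and 0.49 ± 0.16 for Orm1. The 16-week HFD difference was 1.94 ± 1.21 for Saa3, 1.27 ± 0.48 for Wfdc21, 0.27 ± 0.29 for Hp and -0.070 ± 0.23 for Orm1. The HFD-STZ-DR difference against HFD-STZ was -2.18 ± 0.68 for Saa3, -1.02 ± 0.32 for Hp, -0.74 ± 0.26 for Orm1 and -0.67 ± 0.44 for Wfdc21.

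The 8 markers of lipid-associated or inflammatory macrophages, a list that also holds Lpl and Fabp5 of adipocytes, correlated within groups at 0.78 with Il1rn, 0.77 with Hp, 0.75 with Orm1, 0.73 with Wfdc21, 0.70 with Saa3 and 0.55 with Serpina3n. Their mean ran from 10.82 to 11.79 in SD and from 11.79 to 12.85 in HFD at 24 weeks, and from 10.99 to 11.35 in HFD-STZ-DR. Mmp12, a macrophage elastase on this list and so part of that mean, was higher in HFD than SD at 24 weeks by 4.62 ± 0.45 (log2, SE). The shift of the list mean between these groups therefore rests in part on Mmp12. The paper lists Mmp12 among genes it had already found to differ in these samples, so this difference is a description. Further members of this list and of the adipocyte list are among the top genes of the paper's joint analysis. The means of both lists are therefore not independent of results from these samples. Apart from Saa3, Mmp12 was the only gene of the lists with an adjusted p under 0.05 in any comparison, and nothing is read from this. The 10 general macrophage markers correlated at 0.33 with Saa3. The part of these cells in the results was not tested.

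Lcn2 went with neutrophil markers: 9 of 10 were above the filter, Csf3r the highest (6.49) and Cxcr2 the lowest (2.89), and their mean correlated with Lcn2 within groups at r = 0.73 (rho = 0.61; 0.58 without the 2 farthest samples) and with Saa3 at -0.09. HFD replicate 7 at 24 weeks and HFD replicate 4 at 16 weeks, the 2 highest for Lcn2, also had the 2 highest neutrophil means, 9.13 and 8.87. Of 10 hepatocyte markers 4 were above the filter, Cyp2e1 being the highest (12.3) and Serpina1c the lowest (-0.90), and their mean stayed between 3.21 and 4.53 in all samples. It correlated at 0.77 with Hp and 0.76 with Orm1 within groups. Cyp2e1 is also expressed in adipose tissue.

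**Figure D4:**
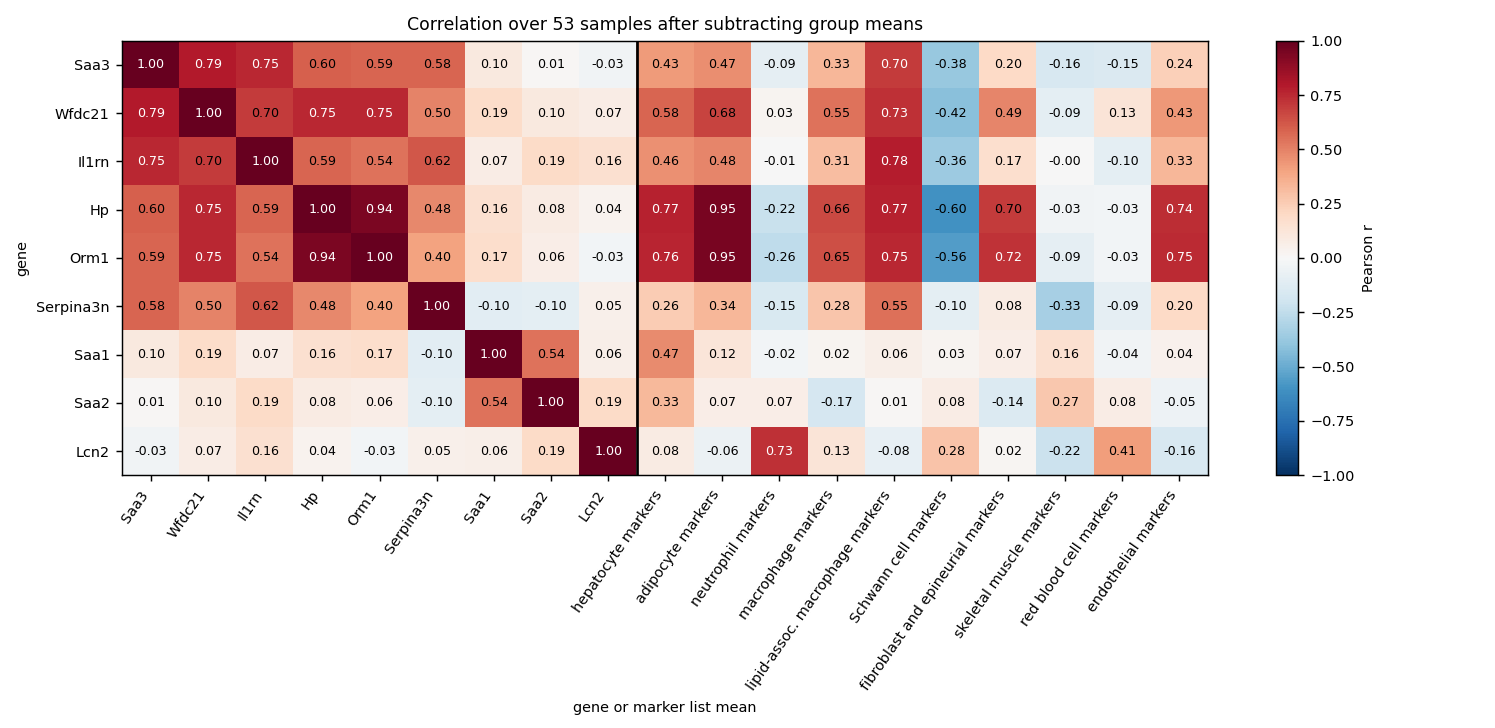
Pearson r over 53 samples after subtracting group means, for each gene (rows) with each other gene and with the mean of each marker list (columns); the colour scale runs from -1 to 1. Hp and Orm1 pair with adipocyte markers (0.95 and 0.95), Lcn2 with neutrophil markers (0.73), and Saa3 most with Wfdc21 (0.79).

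No gene of the wider acute phase pathway passed the test. Of the other serum amyloid and pentraxin genes (Saa4, Apcs, Crp) none of 3 passed the low-value filter. Among 36 other liver-type acute phase genes 20 were tested for HFD against SD at 24 weeks, 0 with an adjusted p under 0.05 and 1 higher and 1 lower at an unadjusted p under 0.05, with a median difference of 0.20 beside 0.01 over all genes. Serpina3m, a neighbour and paralog of Serpina3n, differed most, by 1.34 ± 0.30 (log2, SE, limma adjusted p = 0.11), and had the highest within-group r with Saa3 on that list, 0.72, while A2m, which encodes a broad protease inhibitor, had the lowest, -0.13. In each of the reversal comparisons 19 of these genes were tested, with 0 higher and 5 lower at an unadjusted p under 0.05 and median differences of -0.28 for HFD-DR and -0.30 for HFD-STZ-DR, against -0.0019 and 0.0069 over all genes. At an unadjusted p under 0.05 stood 1648 of all 18195 genes for HFD against SD at 24 weeks, 1242 of 18479 for HFD-DR against HFD and 1157 of 17868 for HFD-STZ-DR against HFD-STZ, in either direction.

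Of the interleukin 1 ligands and receptors 8 were tested, with Il1rl1 differing most (0.30 ± 0.19, log2, SE) and none at an unadjusted p under 0.05. Il1r2, the decoy receptor, had the highest r with Saa3 on that list (0.37), and Il1rap, the shared receptor chain, the lowest (-0.37). Of the interleukin 6 family and its signal carriers 12 were tested and none had an unadjusted p under 0.05. Osm had the largest difference (0.27 ± 0.24) and the highest r (0.27), and Jak2 the lowest r (-0.33).

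Of 9 transcription factors of the response, including the C/EBP and NF-kappaB genes, 0 were higher and 1 lower at an unadjusted p under 0.05. Cebpa, an adipocyte and liver factor, differed most (0.34 ± 0.39) and had the highest r with Saa3 (0.42), and Rela had the lowest (-0.24). Of 10 receptors and clearance genes 1 was higher at an unadjusted p under 0.05, the scavenger receptor Cd36 (1.02 ± 0.43, limma adjusted p = 0.505), which also had the highest r (0.50), and Slc22a17, a lipocalin receptor, the lowest (-0.38). Of 9 further WAP and antimicrobial genes none had an unadjusted p under 0.05, Camp differing most (1.03 ± 0.93), with Lyz2 at the highest r (0.43) and Slpi at the lowest (-0.19). Across these lists 0 genes had an adjusted p under 0.05 in any of the 15 comparisons.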

How the data were processed

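Sciatic nerve RNA of 53 mice was sequenced. According to the labels and methods, the authors aligned reads to GRCm38 (mm10) with HISAT2 and counted them with featureCounts. The deposited values are log2 values, 1 per gene and sample, normalised between samples in a way not given in the sources used here. The labels and the methods name different library kits. No counts or depth came with them, so precision rests on the spread between mice, each taken as 1 replicate.

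Comparisons were fitted with limma 3.58.1 (R 4.3.3; empirical Bayes with a mean trend) on the groups compared, leaving out genes with a mean under 10 on the linear scale and 25 genes with a value above 22 and adjusting p-values by Benjamini-Hochberg across every tested gene. Single genes were tested by 2-sided exact permutation. The genes, lists and tests were chosen with earlier results of these data known. Named beside the 9 genes were the 5 other genes most like Saa3, the extremes of each pathway and marker list, and list genes with an adjusted p under 0.05; Fabp5, Lpl, Saa4, Apcs and Crp were named after their values were seen. Coordinates are from GENCODE M21 and promoters from RefSeq. Orm1 shares 6.95% of its 100-base stretches with Orm2. Alternatives are given below.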

Additional observations from a re-analysis of the deposited data

Results flagged for a closer look

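Among 72 sets of 1 gene in 1 group, 4 held a sample far from the rest of its group by Dixon's test, where chance gives about 3.6. Lcn2 was high in HFD replicate 4 at 16 weeks (10.55, the next highest 9.02), in HFD replicate 7 at 24 weeks (10.86, next 9.24) and in HFD-STZ-DR replicate 5 (9.29, next 8.59). Hp was low in HFD-STZ-DR replicate 2 (9.03, the next lowest 11.04). No cause was tested.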

How the results depend on the processing

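Results are given as the number of the 9 genes with an adjusted p under 0.05. For HFD against SD at 24 weeks (1 in the report) the number was 4 with all 8 groups in 1 fit, with or without the run of library numbers as a term, 3 after centring samples on their median, 5 with the adipocyte marker mean as a covariate, 0 with the minimum of 10 (linear) required in every sample, which removes Saa3, and 1 to 4 when each sample was left out. For HFD-STZ against SD at 24 weeks (0) it was 1 with all 8 groups, with or without the run term, and with the adipocyte covariate, and 0 to 1 on leaving out samples. For HFD-DR against HFD (0) it was 3 with all 8 groups, with or without the run term, 1 after centring, 2 with the adipocyte covariate and 0 to 1 on leaving out samples. For reversal in the HFD-STZ model (1) the number was 0 with no filter, with the minimum in every sample, with robust variances, with no trend, with genes above 22 kept and with the adipocyte covariate, 4 with all 8 groups but 1 once the run term was added, 3 without the 3 libraries that stand apart (chosen after seeing the data), and 0 to 5 on leaving out samples. It was 0 to 1 on leaving out samples for HFD-STZ-DR against SD. The 10 other comparisons gave 0 throughout. Of 434 recomputed differences of single genes 1 changed direction, Orm1 for HFD against SD at 16 weeks, at -0.070 with the adipocyte covariate. The cause of these changes was not tested.

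For within-group r with Saa3, removing the library-number run gave 0.27 for Saa1 and 0.71 for Hp; 24-week samples alone gave -0.23 for Lcn2, 0.75 for Orm1 and 0.65 for Il1rn; 16-week samples alone gave 0.87 for Il1rn and 0.88 for Wfdc21; and removing the adipocyte marker mean gave 0.68 for Il1rn and 0.73 for Wfdc21. Leaving out each sample in turn gave 0.05 to 0.16 for Saa1, -0.05 to 0.07 for Saa2, -0.15 to 0.03 for Lcn2, 0.56 to 0.65 for Hp, 0.54 to 0.63 for Orm1, 0.51 to 0.62 for Serpina3n, 0.69 to 0.79 for Il1rn and 0.76 to 0.81 for Wfdc21. The labels give no replicate numbers. Library numbers in the sample titles fall into 8 runs that each hold several groups, and the fit blocked on these runs is the one with the run term above.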
